A study of Mus musculus with 9 samples.

Results

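Heterozygous *Mir96*Dmdo hair cells (HCs) were compared with wild-type HCs, using 6 of the 9 libraries of the series. The members are the libraries that the labels name as heterozygous (mice 45, 48 and 51) and as wild-type (mice 44, 55 and 59). The remaining 3 libraries are homozygous mutants (mice 43, 46 and 47), which enter only the shared estimate of the spread and a few side-by-side values. Each library holds RNA of cochlear and vestibular HCs of 1 mouse at postnatal day 1 (P1), sorted as cells positive for both GFP and the epithelial marker CD326.

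The genotypes were *Mir96*+/+; *Atoh1*/nGFP+ for wild-type mice and *Mir96*+/Dmdo; *Atoh1*/nGFP+ for heterozygous mice, so both groups carried the reporter. The reporter places GFP in cells that express *Atoh1*, the transcription factor that starts HC differentiation. The Dmdo (diminuendo) allele was kept on C3HeB/FeJ and the reporter on C57BL6, so DNA linked to *Mir96* differs by strain as well as by the mutation. Cochlear and vestibular HCs were not separated. Differences are written as heterozygous minus wild-type throughout.

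MicroRNAs are short RNAs that pair, mainly through the seed near their 5′ end, with sites in the 3′ untranslated regions (UTRs) of messenger RNAs, which are then destabilized or translated less. miR-96 is a member of the miR-183 cluster, which is expressed in HCs and other sensory cells. The Dmdo mutation lies in the seed of miR-96, and mice with 1 copy lose hearing progressively while those with 2 copies are deaf. A heterozygous HC can make both versions, 1 able to bind the usual sites and 1 able to bind sites of another sequence.

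The mature sequences are shown because the seed defines which 3′ UTRs each version can pair with. Capitals mark the seed, bases 2 to 8, and the wild-type sequence is that of RefSeq for GRCm38.p6 (chr6:30169506-30169528, minus strand). The Dmdo version carries A7U, counted from 1 at the 5′ end of the mature miRNA.
miR-96-5p: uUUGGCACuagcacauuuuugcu
miR-96-5p, Dmdo version: uUUGGCUCuagcacauuuuugcu
The matching 7-base DNA site is GTGCCAA for the wild-type seed and GAGCCAA for the Dmdo seed. An 8-base site has an A after these letters, opposite base 1 of the miRNA.

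Wild-type libraries held 19677015 to 28486252 reads assigned to genes and heterozygous libraries 29470207 to 34873964. Log2 levels correlated across genes at 0.758 to 0.844 between mice of a genotype and at 0.745 to 0.834 between mice of different genotype. Genes are not independent replicates, and no pair of libraries differed by as little as sampling noise. Wild-type mouse 59 lay far from the others on principal component 1 over the 6 libraries (39.5% of the variance), and 2248 of the genes tested had 3 or fewer reads in it, against 621 to 1014 in each of the other 5. The study reports lower RNA integrity for a wild-type and a homozygous mutant sample than for the rest, and sorted cell numbers that varied between mice. The labels do not tie RNA integrity or cell number to single libraries. Their part in the distance of mouse 59 was not tested. *Xist* exceeded the Y-linked *Ddx3y* in wild-type mice 44 and 59 and in heterozygous mouse 48, so the sexes were mixed in both groups. *Mir96* was read at 0.0898, 7.55 and 28.8 CPM (reads of a gene scaled to the size of its library) in wild-type mice and 0, 8.99 and 2.42 CPM in heterozygous mice. Such gene counts do not read the mutated base, so they gave no check of the genotype labels.

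To ask which genes differ with 1 copy of the mutation, 14808 of 43808 genes were tested, each read at least 20 times in 2 or more of the 3 libraries of a genotype. In edgeR's quasi-likelihood fit, no gene passed a false discovery rate of 10% with a fold change above 1.5 (0% of the genes tested called higher and 0% called lower). The smallest adjusted p was 0.817, for *Nefm*, and the next was 0.9997. At an unadjusted p under 0.05 there were 281 genes higher (1.9%) and 359 lower (2.42%), 640 in all (4.32%). Scaling by library totals in place of TMM factors turned this split to 342 higher and 284 lower. DESeq2, fitted to the same counts, called 17 genes higher (0.115%) and 28 lower (0.189%). Of these 45 genes (0.304%), 37 had 3 or fewer reads in at least 1 of the 6 libraries (against 20.1% of all genes tested), and 10 had a mean of at least 10 CPM in either genotype.

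The spread between mice was wide. The edgeR test gives no standard error, so an approximate one was taken as the absolute log2 fold change divided by the square root of the F statistic. It carries the same information as the unadjusted p and is least reliable for genes with few reads. Its median was 0.58 over all genes tested and 0.44 over the 10603 genes with a mean of at least 10 CPM. The median log2 fold change was -0.012, and 49.0% of the genes lay above 0. For 855 genes (5.77%) all 3 heterozygous CPM lay above all 3 wild-type CPM, and for 750 (5.06%) all lay below. With library totals these counts were 1024 (6.92%) and 612 (4.13%). The edgeR p-values use the spread between mice within genotypes, estimated over all 9 libraries and partly shared across genes. An exact permutation test of 1 gene cannot give a p under 0.1 with 3 against 3. Because the RNA is bulk, fewer cells of a type and less RNA per cell cannot be told apart.

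**Figure D1:**
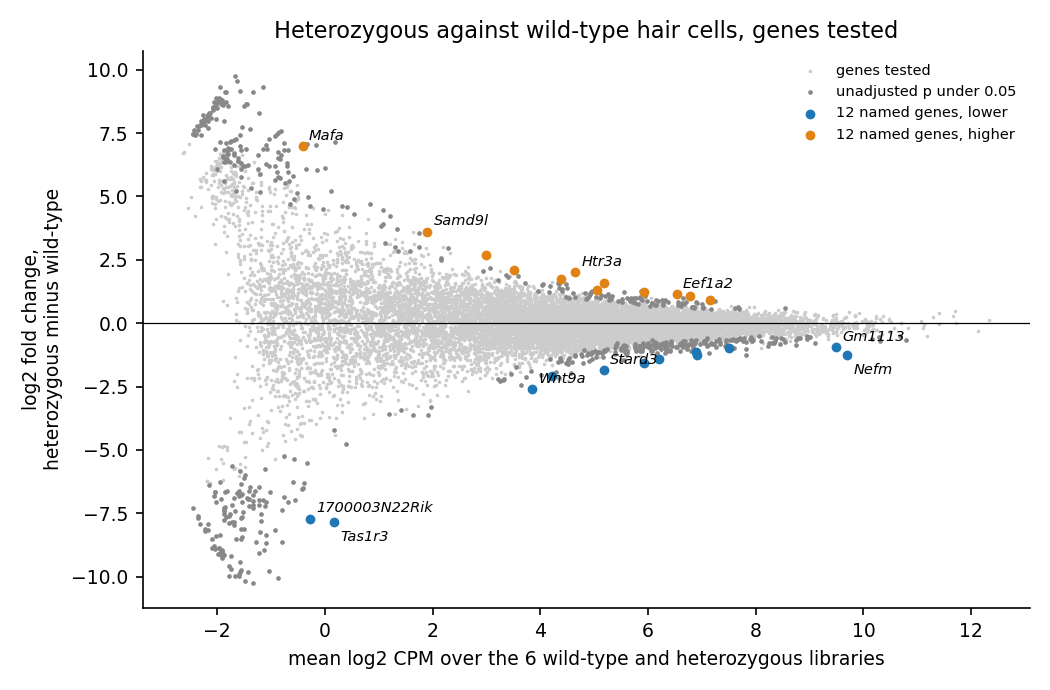
Log2 fold change (heterozygous minus wild-type) against mean log2 CPM of the 6 libraries for the 14808 genes tested; dark grey points have an unadjusted p under 0.05, blue and orange points are the 12 genes of smallest p in each direction whose groups do not overlap. *Nefm* and *Gm1113* lie at the right, among well-read genes, while *Tas1r3*, *1700003N22Rik* and *Mafa* lie at the left, where 1 genotype had few reads.

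The genes described first are those whose heterozygous and wild-type CPM did not overlap, ranked by p, the leading 12 higher and 12 lower. None was called in the edgeR fit. Values are given in the order of mice 44, 55 and 59 for wild-type and 45, 48 and 51 for heterozygous HCs. Brackets give the edgeR log2 fold change ± its approximate standard error (SE), worked out from the F statistic. In that fit every adjusted p for these genes was 0.817 or above and the unadjusted p ran from 5.52e-05 to 0.00509.

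*Nefm* encodes the medium neurofilament chain, an intermediate filament protein of neurons. It was read at 1046, 1385 and 1445 CPM in wild-type HCs and at 446, 617 and 572 CPM in heterozygous HCs. The highest heterozygous mouse was thus well below the lowest wild-type mouse. The means were 1292 ± 215 and 545 ± 88.8 CPM (SD, n = 3 each), 2.37-fold lower in heterozygous HCs. The log2 fold change was -1.25 with a standard error of 0.25, with an adjusted p of 0.817 in edgeR. It kept its sign in 18 of 18 alternative fits (-1.38 to -1.12) and was called in 5 of them, with an adjusted p down to 0.000242 in DESeq2.

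Both genes of glycosylphosphatidylinositol (GPI) anchors among the 12 were lower. *Pigt*, a subunit of the transamidase that attaches GPI anchors to proteins, was at 224, 347 and 208 CPM in wild-type and 119, 137 and 137 CPM in heterozygous HCs (log2 fold change -0.99 ± 0.28). *Pgap3*, which remodels the lipid of the anchor, was at 24.9, 41.5 and 55.4 CPM against 5.61, 9.11 and 13.6 CPM (-2.10 ± 0.58). The heterozygous values of *Pigt* were the more even, with an SD of 10.7 CPM against 76.2 CPM in wild-type HCs.

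*Pgap3* lies on chromosome 11 beside *Stard3*, a cholesterol transfer protein of late endosomes. *Stard3* was at 110, 55.5 and 50.7 CPM in wild-type and 17.7, 28.6 and 14.1 CPM in heterozygous HCs (-1.84 ± 0.49). *Cdk12*, a kinase of RNA polymerase II within 100 kb of *Stard3*, was at 53.6, 55.7 and 138 CPM against 42.3, 37.7 and 52.4 CPM (-0.90 ± 0.42). Of the 6 tested genes within 100 kb of *Stard3*, *Pgap3* and *Cdk12* were the 2 at an unadjusted p under 0.05. The *Cdk12* groups nearly met, and its log2 fold change was -0.33 without wild-type mouse 59. The position is GRCm38 chr11:98358368-98381112 for *Stard3* (plus strand) and chr11:98388677-98400490 for *Pgap3* (minus strand).

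Signalling and regulatory genes were also among the lower 12. *Wnt9a*, a secreted Wnt ligand, was at 39.8, 21.9 and 46.7 CPM in wild-type and 4.90, 6.65 and 6.41 CPM in heterozygous HCs (-2.59 ± 0.77), a mean 6.04-fold lower. *Ppm1h*, a protein phosphatase, was at 223, 167 and 144 CPM against 81.0, 79.9 and 80.9 CPM (-1.14 ± 0.34). *Fbxl19*, an F-box protein, was at 90.2, 122 and 123 CPM against 16, 41.8 and 54.7 CPM (-1.58 ± 0.45). The 3 heterozygous mice were nearly alike for *Ppm1h* and spread more than 3-fold for *Fbxl19*, in which mouse 45 was the lowest.

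*Slc25a23*, a mitochondrial carrier of ATP-Mg and phosphate, was at 175, 203 and 203 CPM in wild-type and 37.4, 110 and 98.3 CPM in heterozygous HCs (-1.24 ± 0.36). *Mthfsd* was at 129, 58.9 and 196 CPM against 48.7, 43.5 and 52.2 CPM (-1.41 ± 0.40), with wild-type mouse 55 close to the heterozygous mice and a log2 fold change of -0.99 without wild-type mouse 59. *Gm1113*, annotated as protein-coding, was at 844, 1051 and 1179 CPM against 326, 642 and 618 CPM (-0.96 ± 0.29). The remaining lower genes were close to absent from heterozygous HCs. *Tas1r3*, a taste receptor subunit, had 872 reads over the wild-type libraries and 6 over the heterozygous ones. The processed pseudogene *1700003N22Rik* had 462 and 3 reads, and its values are uncertain because near-identical copies can share reads.

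Of the 12 lower genes, 10 have an annotated 3′ UTR, and 8 of these hold at least 1 Dmdo site. Among all tested genes with a 3′ UTR the share was 13.4% (1709 of 12793), and among the 12 higher genes with one it was 0 of 10. One of the 8, *Mthfsd*, also holds a wild-type site. The 8 genes were *Nefm*, *Stard3*, *Mthfsd*, *Pigt*, *Fbxl19*, *Slc25a23*, *Wnt9a* and *Ppm1h*. The 5 with an 8-base Dmdo site are shown with 10 bases before and 8 after the 7 bases (for *Ppm1h*, 1 of its 3 sites), since *Nefm*, the gene of smallest p, is among them. Letters are the transcript strand of GRCm38, capitals mark the 7 bases that pair with the Dmdo seed, and coordinates are those of the 7 bases.
Nefm (chr14:68119742-68119748, minus): agtaccaactGAGCCAAaaataata
Pigt (chr2:164508070-164508076, plus): tggtagacttGAGCCAAatcccttc
Fbxl19 (chr7:127768216-127768222, plus): gggaggtgctGAGCCAAagggatgg
Wnt9a (chr11:59331945-59331951, plus): cttcttcagaGAGCCAAaccactag
Ppm1h (chr10:122944551-122944557, plus): agagactcagGAGCCAAatttcact
The bases on either side differ between the 5 genes, and the shared letters are the searched site with the A that follows it. *Mthfsd*, *Stard3* and *Slc25a23* hold 7-base sites only, shown here for the latter pair.
Stard3 (chr11:98381075-98381081, plus): gtaatgatttGAGCCAAttaaaaac
Slc25a23 (chr17:57044883-57044889, minus): tggattctagGAGCCAAgaactctc
A match of this kind is a description of the sequence, and binding was not measured.

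Among the 12 higher genes were *Htr3a*, the A subunit of the serotonin-gated ion channel, and *Eef1a2*, a translation elongation factor of neurons and muscle. *Htr3a* was at 17.1, 12.7 and 10.1 CPM in wild-type and 23.6, 68.2 and 68.6 CPM in heterozygous HCs (2.0 ± 0.53). Heterozygous mouse 45 lay nearer to the wild-type mice than to the other heterozygous mice. *Eef1a2* was at 46.8, 92.5 and 56.1 CPM against 122, 202 and 106 CPM (1.14 ± 0.32).

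*Usp24*, a deubiquitinating enzyme, was at 40.8, 33.2 and 45.5 CPM in wild-type and 76.7, 118 and 88.2 CPM in heterozygous HCs (1.25 ± 0.35). *Vwc2*, a secreted antagonist of bone morphogenetic proteins, was at 15.9, 17.4 and 31.7 CPM against 46.8, 60.5 and 89.1 CPM (1.59 ± 0.45). *Psph*, the last enzyme of serine synthesis, was at 83.0, 121 and 114 CPM against 246, 184 and 163 CPM (0.90 ± 0.29). These genes were well read in all 6 libraries, with heterozygous means 1.87- to 3.02-fold above wild-type means.

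*Mslnl* was at 60.0, 102 and 74.0 CPM in wild-type and 111, 207 and 173 CPM in heterozygous HCs (1.06 ± 0.31). *Ecrg4*, which encodes a secreted peptide precursor, was at 11.6, 10.2 and 15.5 CPM against 76.2, 24.8 and 23.3 CPM (1.74 ± 0.51), or 0.95 on the log2 scale without heterozygous mouse 45. *Fam136a*, a mitochondrial protein, was at 9.11, 3.46 and 5.04 CPM against 37.2, 17.3 and 19.9 CPM (2.08 ± 0.65). For both genes heterozygous mouse 45 was the highest of the 6.

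*Samd9l*, an interferon-inducible gene, was at 0.808, 2.10 and 0.712 CPM in wild-type and 26.3, 13.1 and 5.14 CPM in heterozygous HCs (3.61 ± 1.05), and DESeq2 called it with an adjusted p of 0.0250. *Mafa*, a transcription factor best known from insulin-producing cells, had 3 reads over the wild-type libraries and 575 over the heterozygous ones (90, 300 and 185), a ratio of 132 after scaling. The exact 95% counting interval of 45 to 643 leaves out the spread between mice. *Mafa* passed the read filter only through the heterozygous libraries, and its adjusted p in edgeR was 0.9997. The last of the 12, *Gm9294* and *Gm21399*, are processed pseudogenes, whose reads may come from near-identical copies.

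Of these 24 genes DESeq2 called 6 lower (*Nefm*, *Stard3*, *Pgap3*, *Wnt9a*, *Tas1r3* and *1700003N22Rik*) and 2 higher (*Samd9l* and *Mafa*). The leading DESeq2 calls outside them were close to absent from 1 genotype. They passed the read filter only through the other genotype. *Gm527* had 335 reads over wild-type and 0 over heterozygous libraries, *Agxt* 620 and 3, *Gm4793* 313 and 0, *G630022F23Rik* 287 and 0, and *Gm14418* 264 and 0. Single wild-type mice were near 0 as well. In mice 44, 55 and 59 the reads were 2, 69 and 242 for *Gm4793*, 233, 52 and 2 for *G630022F23Rik*, and 1, 71 and 192 for *Gm14418*. *Agxt*, an aminotransferase of liver peroxisomes, was at 0.0898, 2.14 and 30.5 CPM in wild-type HCs, so mouse 59 gave most of its reads. In the other direction *Fam83g* had 4 reads over wild-type and 851 over heterozygous libraries, *Adamtsl2* 7 and 717, and the proteoglycan *Cspg4* 3 and 631. *Mgst1*, a microsomal glutathione transferase with 25 and 871 reads, was at 0.457 CPM in heterozygous mouse 45 and 12.7 and 12.3 CPM in mice 48 and 51.

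**Figure D2:**
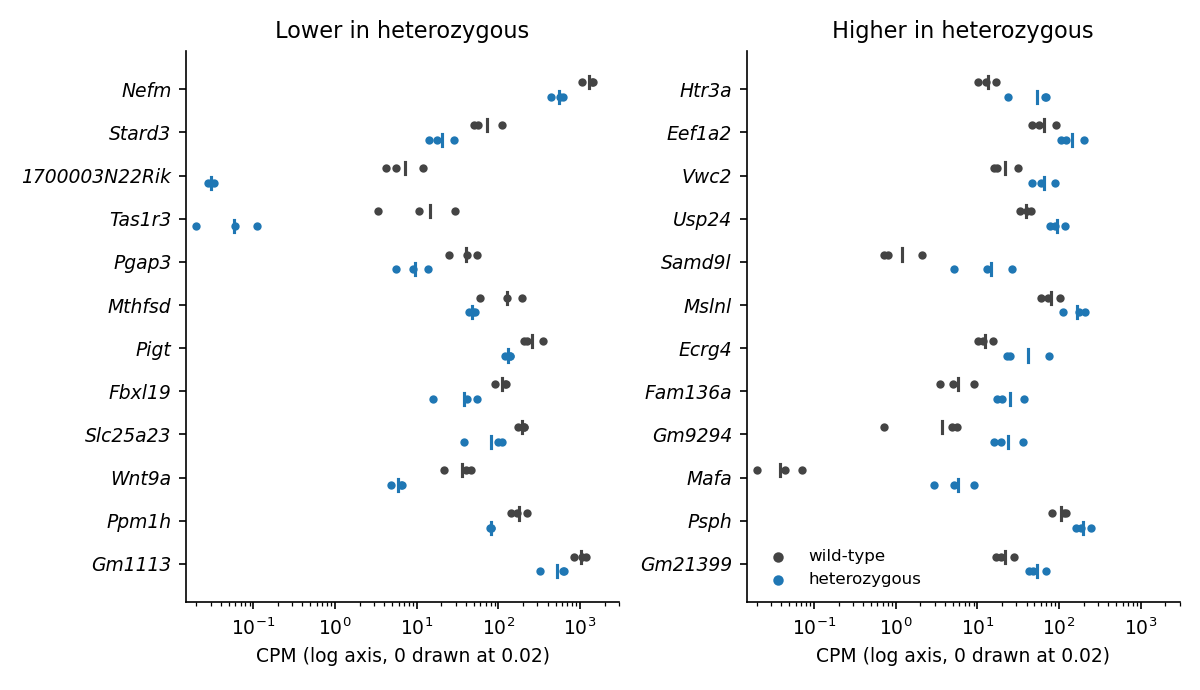
CPM (log axis, 0 drawn at 0.02) in each wild-type (grey) and heterozygous (blue) library for the 12 lower and 12 higher genes; each point is 1 mouse and each vertical bar a genotype mean. By the rule that chose them, the groups of each gene do not overlap; the gap is narrow for *Mslnl* and *Mthfsd*, and 1 genotype lies near 0 for *Tas1r3*, *1700003N22Rik* and *Mafa*.

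The Dmdo site was then followed over all 12793 tested genes with a 3′ UTR, in classes set by 7-base sites alone. The 1345 genes with a Dmdo site and no wild-type site had a median log2 fold change of -0.17, and 38.8% of them lay above 0. The 1218 genes with a wild-type site only had a median of 0.036, with 52.6% above 0. The 364 genes with both had a median of -0.063, and the 9866 with neither -0.014.

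At an unadjusted p under 0.05, 64 of the Dmdo-only genes were lower (4.76%) and 13 higher (0.967%). Of the genes with neither site, 1.98% were lower and 1.66% higher, and of those with a wild-type site only, 1.89% and 1.64%. Without any p, all 3 heterozygous CPM lay below all 3 wild-type CPM in 8.85% of the Dmdo-only genes and in 4.92% of the genes with neither site. The opposite order was seen in 3.79% and 5.45%. For genes with a wild-type site only, heterozygous CPM lay above wild-type CPM in 7.06% and below in 3.78%.

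Longer and repeated sites gave medians further below 0. The 480 genes with an 8-base Dmdo site and no 8-base wild-type site had a median of -0.21. They can still hold 7-base wild-type sites. At an unadjusted p under 0.05, 6.67% were lower and 1.875% higher, against 2.16% and 1.57% of genes with neither 8-base site. Without overlap, 10.6% were lower and 3.33% higher, against 5.11% and 5.42%. With 0, 1 and 2 or more Dmdo sites the medians were -0.0089, -0.14 and -0.24 (11084, 1513 and 196 genes). The same count of wild-type sites gave -0.029, 0.013 and -0.012, with no order. Genes with a site have longer 3′ UTRs (a median of 2351 bases for Dmdo-only, 2398 for wild-type-only and 1136 for neither). The part of UTR length in these values was not tested.

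Read from the other side, 26.8% of the 298 genes with a 3′ UTR that were lower at an unadjusted p under 0.05 hold a Dmdo site, and 8.46% of the 201 higher ones. For the wild-type site the shares were 13.1% and 11.9%, against 12.4% of all tested genes.

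**Figure D3:**
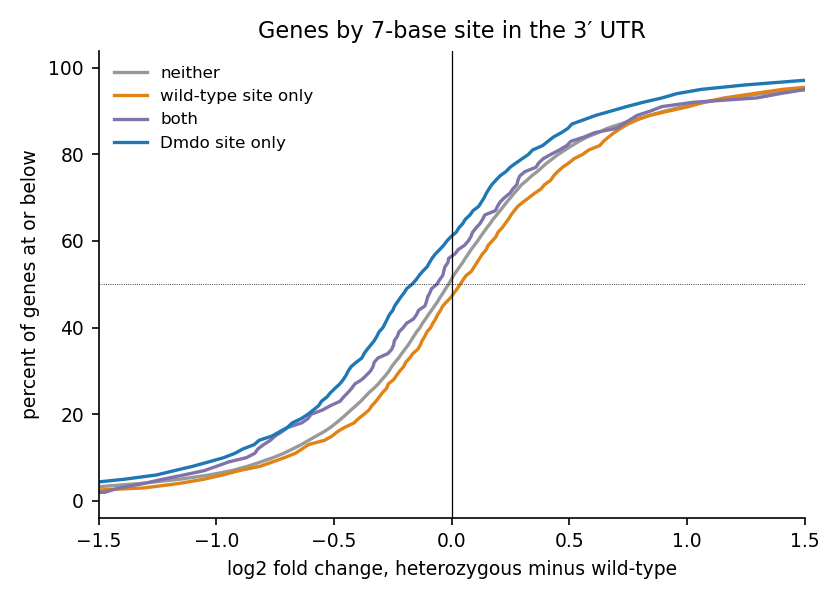
Percent of genes at or below each log2 fold change (heterozygous minus wild-type) for the 4 classes of 7-base site in the 3′ UTR. The curve of the 1345 genes with a Dmdo site only lies left of the 9866 genes with neither site over most of the range, and the curve of the 1218 genes with a wild-type site only lies slightly right of it.

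The class was also measured in every library, as its median log2 level relative to the mean of the 6 libraries, minus the same median over genes with neither site. For the Dmdo-only genes this difference was -0.0017, 0.12 and 0.12 in wild-type mice and -0.11, -0.036 and -0.055 in heterozygous mice. The groups did not overlap, though wild-type mouse 44 lay close to heterozygous mouse 48. The means were 0.082 ± 0.072 and -0.067 ± 0.039 (SD, n = 3 each). The homozygous mutants, set on the same scale, were at -0.19, -0.17 and -0.18, below all heterozygous mice. In all 3 homozygous mutants *Xist* lay below *Ddx3y*, unlike wild-type mice 44 and 59 and heterozygous mouse 48. The part of sex in this order was not tested. With 8-base sites the values were -0.024, 0.12 and 0.14 in wild-type, -0.14, -0.089 and -0.074 in heterozygous and -0.24, -0.20 and -0.23 in homozygous mutant HCs.

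For wild-type-only genes the corresponding values were -0.11, 0.039 and 0.013 in wild-type mice and -0.0075, 0.10 and 0.038 in heterozygous mice, so these groups overlapped. The homozygous mutants were at 0.074, 0.18 and 0.11. Wild-type mouse 44 was the lowest wild-type library in both classes.

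**Figure D4:**
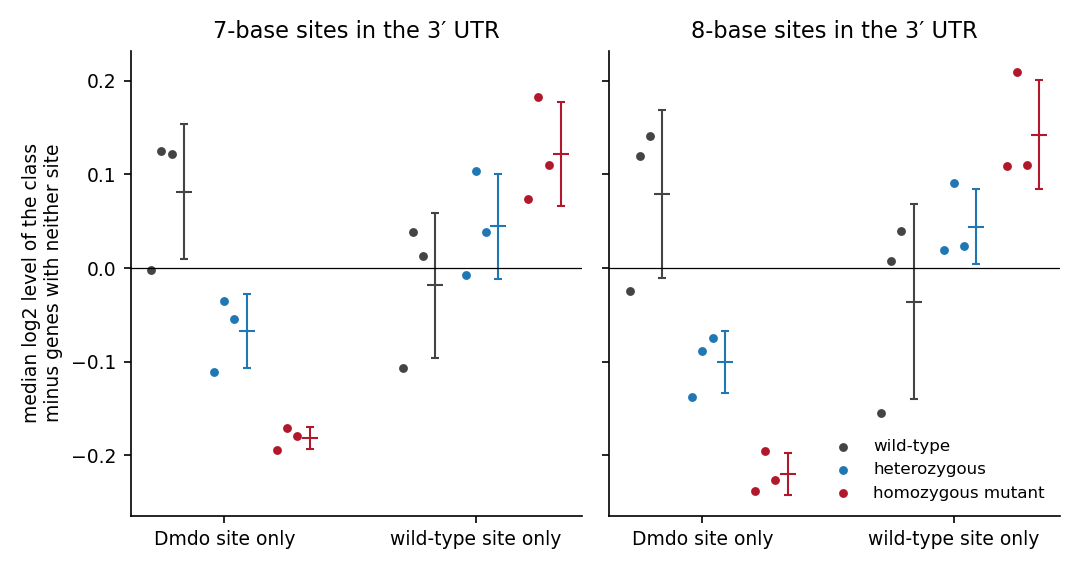
Median log2 level of genes with a Dmdo site only or a wild-type site only, minus that of genes with neither site, in each library (points) with the mean ± SD of 3 mice (bars); 7-base sites left, 8-base sites right. For the Dmdo site the heterozygous mice lie between the wild-type and homozygous mutant mice without overlap, and for the wild-type site wild-type and heterozygous mice overlap.

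Of the 526 genes with an 8-base Dmdo site, 27 were lower and 6 higher at an unadjusted p under 0.05 with no overlap between genotypes. Of the 505 genes with an 8-base wild-type site, 4 were lower and 5 higher by the same measure. Over all genes tested these shares were 1.4% lower and 1.25% higher, and over those with a 3′ UTR 182 of 12793 were lower and 141 higher. The next genes were chosen from the 27 after their values were seen. *Ctsd*, the lysosomal protease cathepsin D, was at 390, 423 and 404 CPM in wild-type and 283, 271 and 255 CPM in heterozygous HCs (-0.59 ± 0.23), with little spread within either genotype. *Cplx2*, a complexin that regulates vesicle fusion, was at 381, 251 and 256 CPM against 221, 203 and 179 CPM (-0.56 ± 0.27).

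*Ldb1*, a cofactor that joins LIM-domain transcription factors, was at 244, 364 and 331 CPM in wild-type and 196, 172 and 215 CPM in heterozygous HCs (-0.69 ± 0.29). *Anp32b*, a histone chaperone, was at 157, 133 and 211 CPM against 108, 74.3 and 67.5 CPM (-1.01 ± 0.32). Their sites are given to show the same core in other sequence. *Ldb1* also holds 1 wild-type site.
Ctsd (chr7:142375951-142375957, minus): aggcagctggGAGCCAAagttgaaa
Cplx2 (chr13:54380234-54380240, plus): attgaacccaGAGCCAAaggcattg
Ldb1 (chr19:46031709-46031715, minus): atgctctcagGAGCCAAaggaaagg
Anp32b (chr4:46472272-46472278, plus): cccacccaaaGAGCCAAagaatagt

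*Lamp2*, a lysosomal membrane protein, holds an 8-base wild-type site and no Dmdo site, and was chosen from the 5 higher genes after its values were seen. It was at 55.4, 61.5 and 57.9 CPM in wild-type and 116, 107 and 106 CPM in heterozygous HCs, a mean 1.88-fold higher (0.91 ± 0.30). Its groups were far apart relative to their SDs of 3.07 and 5.23 CPM. Its site is shown beside the Dmdo sites above because it differs from them at the mutated position.
Lamp2 (chrX:38421006-38421012, minus): ttgctaggcaGTGCCAAatgaaggc

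Of 11 reported miR-96 targets 9 were tested, none had an unadjusted p under 0.05, 2 lay above 0 and 7 below, and their median was -0.15. The 2 above 0, *Aqp5* and *Zeb1*, had all heterozygous mice above all wild-type mice, as had 5.77% of all genes tested, and none of the 9 had all of them below. Taken library by library, however, the median level of the 9 was higher in heterozygous mice by 0.23, with overlapping groups, so the measures differ in sign.

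Genes by which HCs work were next counted by role, beside 1.9% higher and 2.42% lower at an unadjusted p under 0.05 over all genes tested. Of the 20 genes of bundle links and mechanotransduction, 15 lay below 0 (median -0.22). Of 21 genes of the stereocilia actin core, 2 were lower at that p and 13 lay below 0 (median -0.13). *Espn*, which bundles stereocilia actin, was at 1190, 1502 and 1611 CPM against 749, 1013 and 1032 CPM (-0.62 ± 0.23). *Gipc3* was at 172, 368 and 375 CPM against 121, 229 and 195 CPM (-0.75 ± 0.31), and its groups overlapped.

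Of 23 ribbon synapse and exocytosis genes tested, 17 lay below 0 (median -0.20), 1 of them at an unadjusted p under 0.05. This was *Syt2*, a calcium sensor of vesicle release, at 205, 274 and 312 CPM in wild-type and 153, 163 and 196 CPM in heterozygous HCs (-0.63 ± 0.27). Of 13 calcium buffers and pumps, 10 lay below 0 and none reached that p (median -0.24). Of 21 channel genes, 1 was higher, *Htr3a*, and 3 were lower. *Kcnma1*, the pore of the large-conductance calcium-activated potassium channel, was at 56.5, 64.5 and 74.3 CPM against 31.9, 36.5 and 26.5 CPM (-1.04 ± 0.41). *Scn3b*, a sodium channel beta subunit, was at 223, 222 and 328 CPM against 166, 163 and 191 CPM (-0.57 ± 0.26). The third, *Kcnc1*, had 353 reads over wild-type and 2 over heterozygous libraries. Its wild-type reads were 134, 217 and 2 in mice 44, 55 and 59.

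Of 25 HC transcription regulators tested, 17 lay below 0 (median -0.27), and *Skor1*, a corepressor, was the one past an unadjusted p of 0.05. It was at 568, 654 and 633 CPM in wild-type and 322, 458 and 419 CPM in heterozygous HCs (-0.63 ± 0.25). *Myo7a*, a defining HC myosin, was at 992, 1426 and 1428 CPM against 785, 1340 and 1143 CPM, with overlapping groups, so this marker was well read in every library. Of 10 neurofilament and neuronal cytoskeleton genes tested of 16 listed, 8 lay below 0 (median -0.29), with *Nefm* alone past that p. *Map1b*, a microtubule-associated protein, was at 302, 368 and 449 CPM against 308, 235 and 248 CPM (-0.50 ± 0.25), and *Nefh*, the heavy neurofilament chain, was at 19.8, 14.2 and 0.493 CPM against 11.7, 10.9 and 4.67 CPM.

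Measured library by library relative to all genes tested, the median of the neurofilament list was 0.17, 0.25 and -0.088 in wild-type and -0.25, -0.17 and -0.10 in heterozygous mice. The genotypes did not overlap, as in 10.8% of single genes tested, but wild-type mouse 59 and heterozygous mouse 51 nearly met. For the lists of bundle links, actin core, synapse, calcium, channels and HC regulators the 3 wild-type libraries spanned the heterozygous ones at least in part. In the lists of bundle links and of the synapse, for example, wild-type mouse 44 was at -0.23 and -0.39 while wild-type mouse 59 was at 0.43 and 0.41.

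**Figure D5:**
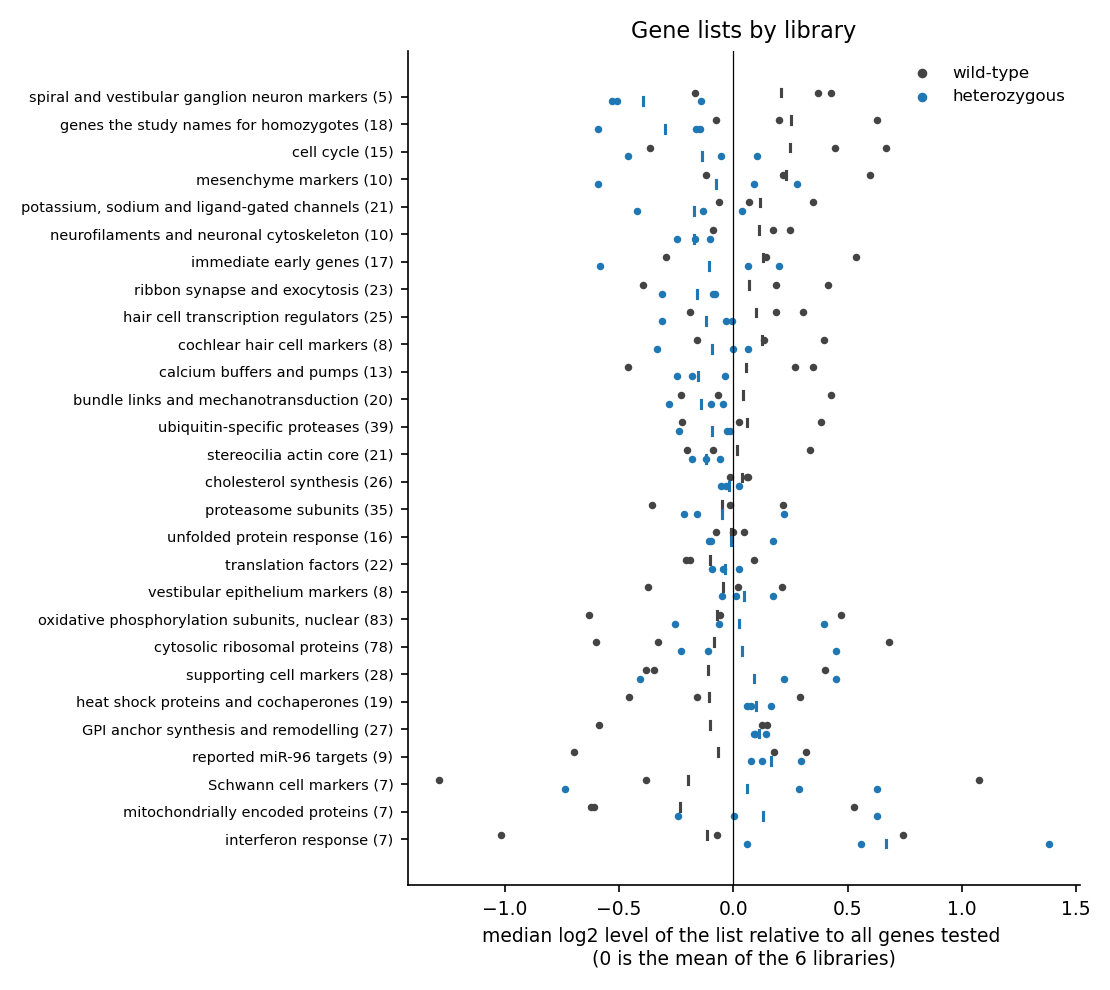
Median log2 level of each gene list relative to all genes tested (x axis, log2 units, 0 is the mean of the 6 libraries) in each wild-type (grey) and heterozygous (blue) library, with genotype means as vertical bars and the number of genes tested in brackets. Of the lists drawn, only the neurofilament list and the list of genes named for homozygotes separate the genotypes without overlap. Of single genes tested, 10.8% did so in either direction. The list named for homozygotes was chosen on libraries of this series, and the neurofilament list holds *Nefm*, the gene of smallest p.

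A list of 19 genes was taken from those the study names for homozygous mutants, and the 18 found in the counts were all tested. In heterozygous HCs 16 lay below 0 and 2 above (median -0.52), 6 were lower and 1 higher at an unadjusted p under 0.05. The genes were chosen on libraries of this series, and both comparisons share the wild-type mice, so the count is not independent evidence of a direction. *Spp1*, which encodes osteopontin, was at 1879, 1482 and 1585 CPM in wild-type, 1287, 645 and 1125 CPM in heterozygous and 493, 493 and 718 CPM in homozygous mutant HCs. *Kif21b*, a kinesin, was at 139, 153 and 303 CPM, 44.8, 90.5 and 119 CPM, and 12.8, 49.9 and 11.1 CPM. *Fbxo2*, a substrate receptor of a ubiquitin ligase, was at 2418, 1956 and 1576 CPM, 1535, 1394 and 1214 CPM, and 1063, 991 and 1129 CPM. In each of these genes all heterozygous mice lay below all wild-type mice. They lay above all homozygous mutants for *Fbxo2* and overlapped them for *Spp1* and *Kif21b*.

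The homozygous levels of the genes named above can be set beside the heterozygous ones in the same way. *Nefm* was at 314, 490 and 460 CPM and *Gm1113* at 130, 258 and 162 CPM in homozygous mutants, so *Nefm* overlapped the heterozygous range and *Gm1113* lay below it. *Pigt* was at 96.6, 91.7 and 67.2 CPM, also below. For *Stard3* (37.7, 56.3 and 21.8 CPM) and *Pgap3* (23.1, 27.5 and 38.8 CPM) the homozygous mean lay above the heterozygous mean. *Usp24*, at 52.5, 52.9 and 61.9 CPM, lay between them as well, while *Eef1a2*, at 241, 248 and 186 CPM, lay above all but 1 of the heterozygous values.

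Other pathways gave few members past an unadjusted p of 0.05. Of 27 genes of GPI anchor synthesis and remodelling tested, 2 were lower (*Pgap3* and *Pigt*) and 18 lay above 0 (median 0.12). Of 26 genes of cholesterol synthesis and handling, *Stard3* was lower and *Stard4* higher (median -0.022). *Stard4*, a cytosolic sterol carrier, was at 34.7, 29.4 and 41.4 CPM in wild-type and 93.8, 58.6 and 59.6 CPM in heterozygous HCs (1.01 ± 0.39). Of 39 ubiquitin-specific proteases, *Usp24* was higher and *Usp2* and *Usp15* lower. *Usp2* was at 96.3, 90.3 and 82.0 CPM against 44.5, 56.1 and 38.9 CPM (-0.95 ± 0.38).

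In the unfolded protein response, 1 of 16 was lower, *Creld2*, an endoplasmic reticulum chaperone at 148, 135 and 148 CPM in wild-type and 65.4, 81.6 and 91.8 CPM in heterozygous HCs (-0.85 ± 0.32). Of 17 immediate early genes 1 was lower, *Socs3*, an inhibitor of cytokine signalling at 518, 458 and 491 CPM against 231, 261 and 387 CPM (-0.74 ± 0.28). Of 19 heat shock proteins tested 16 lay above 0 (median 0.21), and the one past that p was *Hspa1a*, a stress-inducible chaperone, at 0.359, 0.107 and 0.383 CPM against 117, 2.83 and 0.112 CPM. Mouse 45 was far above the other 5 mice.

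In the 22 translation factors *Eef1a2* was the one gene past that p (median 0.13), and in the 15 cell cycle genes tested *Birc5*, with 93 reads in wild-type and 1 in heterozygous libraries (median -0.14). The wild-type reads of *Birc5* were 28, 65 and 0 in mice 44, 55 and 59. Of 83 nuclear oxidative phosphorylation subunits 2 were higher, *Atp5mpl* and *Cox7a1* (median 0.014). None reached it among 78 cytosolic ribosomal proteins (median 0.060), 35 proteasome subunits (0.10), 7 mitochondrially encoded proteins (0.40) or 7 interferon response genes (0.041). The summed level of the ribosomal proteins was 5751 to 14070 CPM in wild-type and 7163 to 12150 CPM in heterozygous libraries.

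Markers of other cells were counted because the sort may hold some. Of 28 supporting cell markers 19 lay above 0 and 9 below (median 0.11), with 1 lower at an unadjusted p under 0.05 (*Fbxo2*, also named above). Their summed level was 5250 to 9087 CPM in wild-type and 4717 to 8310 CPM in heterozygous libraries, so the ranges overlapped widely. Of 8 vestibular epithelium markers 1 was lower (*Spp1*), and of 8 cochlear HC markers none, with medians of -0.034 and -0.29. No Schwann cell marker (7 tested of 10) or ganglion neuron marker (5 of 10) reached that p, and the summed ganglion level was 60.2 to 106 CPM against 58.3 to 64.8 CPM. None of 7 red blood cell and 7 endothelial markers had enough reads to be tested, and red blood cell markers were at 0 CPM in all 6 libraries.

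Of 12 mesenchyme markers 10 were tested, and *Lum*, an extracellular matrix proteoglycan, was higher at 48.2, 73.0 and 58.7 CPM against 40.2, 26.9 and 31.0 CPM in wild-type HCs. The summed mesenchyme level was 298 to 415 CPM in wild-type and 264 to 349 CPM in heterozygous libraries. Of 8 macrophage markers 2 were tested, and *Ptprc* had 0 reads in wild-type and 129 in heterozygous libraries, none of them in mouse 48. The other, *C1qb*, had a log2 fold change of 0.21. The summed macrophage level was 0.107 to 8.17 CPM in wild-type and 2.165 to 12.66 CPM in heterozygous libraries, so the ranges overlapped. Of 6 melanocyte markers 2 were tested, neither past that p. The part of other cells in the values above was not tested.

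Around *Mir96* itself, 54 tested genes lay within 5 Mb on chromosome 6. Of these 1 was higher and 1 lower at an unadjusted p under 0.05 (3.70%, against 4.32% of all genes tested). *Calu*, a calcium-binding protein of the secretory pathway, was at 148, 208 and 161 CPM in wild-type and 305, 241 and 217 CPM in heterozygous HCs (0.56 ± 0.26). *Cpa4*, a carboxypeptidase, had 48, 86 and 39 reads in wild-type mice and 0 in each heterozygous mouse, and it was at 0 CPM in all 3 homozygous mutants. Within this interval the mutation and the strain of the linked DNA cannot be told apart. Over the chromosomes the share of genes at that p ran from 3.10% on chromosome 13 to 5.41% on chromosome 1, with 3.86% on chromosome 6.

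Genes beside the 24 named ones were also listed where they lay within 100 kb and had an unadjusted p under 0.05. Besides *Stard3*, *Pgap3* and *Cdk12*, they were *Stx4a* (lower, beside *Fbxl19*), *Vps50* and *Gm20559* (both higher, beside *Samd9l*), *Zbtb16* (higher, beside *Htr3a*), *Mirlet7i* (higher, beside *Ppm1h*), and *Metrn*, *Wdr90* and *Chtf18* beside *Mslnl*. Of the last 3, *Metrn* and *Wdr90* were lower and *Chtf18* higher. *Samd9l*, *Vps50* and *Gm20559* lie on chromosome 6, as does *Mir96*, but outside the 5 Mb window around it. How far strain DNA linked to *Mir96* extends was not tested, so strain and mutation cannot be told apart for these genes either. How strand was treated in counting was not stated, so reads of overlapping genes on opposite strands cannot be told apart.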

How the data were processed

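The authors deposited raw read counts per gene, 1 file per mouse, as whole numbers with no normalization. Per the submitters' processing notes and the study's methods, reads were checked with FastQC, aligned to GRCm38 with HISAT2 2.0.4 and counted with HTSeq. Totals per library were 19677015 to 34873964 reads over the 6 libraries compared. No molecular identifiers are described, so read numbers bound counting error only.

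All 9 libraries entered 1 edgeR 4.0.16 quasi-likelihood fit (robust, TMM factors, genotype only, in R 4.3.3 with limma 3.58.1), from which the heterozygous minus wild-type contrast was taken. The common biological coefficient of variation was 0.817. Genes needed at least 20 reads in at least 2 of 3 libraries of either genotype, and a call required a Benjamini-Hochberg false discovery rate below 10% with more than a 1.5-fold difference. CPM used TMM-scaled totals. Genes near 0 in a genotype are given as summed reads, with a fold only as a ratio of sums with an exact counting interval.

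3′ UTRs were those of GENCODE vM21 on GRCm38 (all 14808 genes tested were found in it), searched on the transcript strand only for GTGCCAA and GAGCCAA. Named genes were the 12 of smallest p in each direction without overlap, the leading members of each list, genes DESeq2 calls, genes taken from those the study names, and neighbours within 100 kb. Members and lists were chosen with earlier results of these data known. No set test was run. The scripts (Python 3.11.15) were tested on simulated data. Alternatives were DESeq2 1.42.0, limma-voom, other scalings and filters, added terms and leaving out libraries. DESeq2 on 6 libraries and the site classes under every fit were added after seeing the data.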

Additional observations from a re-analysis of the deposited data

How the results depend on the processing

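No paired analysis was possible because the genotypes share no mouse number. Genes called higher numbered 0 in edgeR, 17 in DESeq2, 19 in DESeq2 on 6 libraries and 1 with no low-count filter (*Hspa1a*), and 0 to 1 when 1 mouse was left out (*Scube3*, without wild-type mouse 55). Genes called lower numbered 0 in edgeR, 28 in DESeq2, 59 in DESeq2 on 6 libraries, 1 in limma-voom and 1 with a term for mouse numbers (*Nefm* in both), and 2 with no low-count filter (*Nefm* and *Xist*). No gene was called in the other alternatives. At an unadjusted p under 0.05, higher genes numbered 160 with a term for *Xist*, 176 without heterozygous mouse 51 and 437 without wild-type mouse 44, and lower genes 187 with the *Xist* term, 234 without heterozygous mouse 45 and 568 in DESeq2 on 6 libraries.

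The median of the Dmdo-only genes minus that of genes with neither site was -0.16 and stayed between -0.19 and -0.11 in all 19 fits, and that of the wild-type-only genes was 0.050 (-0.017 to 0.080, 18 of 19 above 0). The main fit and each of the 18 alternative fits had a higher share of lower genes among Dmdo-only genes than among genes with neither site. The smallest excess came without heterozygous mouse 51 (2.68% against 1.55%) and the lowest share with the *Xist* term (2.53% against 0.993%).

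List medians that changed sign and moved by more than the spread between libraries were the channels (0.17 with limma-voom), cochlear HC markers (0.053 without wild-type mouse 55, -0.42 to 0.053 leaving out 1 mouse) and cholesterol genes (0.048 with library totals, -0.13 without wild-type mouse 59 and homozygous mouse 46, -0.14 to 0.019 leaving out 1 mouse). Further medians near 0, among them those of the actin core, supporting cell markers and ribosomal proteins, changed sign in some alternatives within that spread. Others that moved beyond it were the unfolded protein response (0.21 with limma-voom, 0.14 with the *Xist* term, 0.049 to 0.15 leaving out 1 mouse), neurofilaments (-0.46 to -0.25) and sex-linked transcripts (0.40 to 5.01 leaving out 1 mouse). The causes were not tested. With 3 mice per genotype and a median approximate standard error of 0.58, even large differences of single genes were not called in edgeR. *Wnt9a* (-2.59 ± 0.77) is an example. A gene that was not called may therefore still differ.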
